A study of Mus musculus with 24 samples.

Results

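The liver of adult mice, 12 to 14 months old, after 30 min of partial hepatic ischemia is described here against the liver of adult mice of the same age after a sham operation. Members were taken by sample title alone: 3 arrays carried the 30 min label and 3 the sham label, 6 of the 24 arrays of the series. Partial hepatic ischemia closes the blood supply of some liver lobes, and the median and left lobes were collected into RNAlater and their total RNA hybridized to Affymetrix 3' expression arrays. The remaining arrays come from adult mice after 60 or 90 min and from young mice after sham, 30, 60 or 90 min. The ischemia titles write the time as 30/0, and the labels do not say what the 0 stands for. Strain, sex and anaesthesia are not given in the labels used here. Each array is taken as 1 mouse from the design text, which counts as many mice as arrays. Both groups share everything the labels state apart from the operation and the last part of a code in the sample titles, described below. A sham-operated mouse has also been handled and operated on, so the sham group is not unoperated liver.

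Hepatocytes carry out most of the liver's synthesis and detoxification, and Kupffer cells, its resident macrophages, lie in the sinusoids and clear particles from portal blood. When blood flow stops, oxygen and ATP fall, and early transcripts are known to respond to injury or surgery in this tissue. They include immediate early genes such as Fos, Jun and Egr1, which are induced without new protein synthesis, and inflammatory genes under NF-kB such as the chemokine Cxcl1. Metallothioneins, acute phase proteins and glucocorticoid targets are known to answer to stress hormones and cytokines, and the nuclear receptor CAR drives detoxifying enzymes such as Cyp2b10. Clock genes swing with the time of day in liver.

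Promoters are shown for the chemokine and the AP-1 or ATF factor with the most marked difference in their lists. They are also shown for the metallothionein pair, whose values followed each other over the arrays. Each is the 250 bases before the gene's start in RefSeq, build GRCm38.p6, read on the gene's strand, and capitals mark matches on either strand to the motif named. For Cxcl1 (chr5:90890995-90891244, plus strand) the motif is GGGNNTTTC, most of the common NF-kB site. For Jun (chr4:95052223-95052472, minus strand) it is the AP-1 and ATF form TGACATCA or TGACGTCA. For Mt1 (chr8:94178839-94179088, plus strand) and Mt2 (chr8:94172368-94172617, plus strand) it is the metal response form TGCACNC or TGCGCNC.
Cxcl1: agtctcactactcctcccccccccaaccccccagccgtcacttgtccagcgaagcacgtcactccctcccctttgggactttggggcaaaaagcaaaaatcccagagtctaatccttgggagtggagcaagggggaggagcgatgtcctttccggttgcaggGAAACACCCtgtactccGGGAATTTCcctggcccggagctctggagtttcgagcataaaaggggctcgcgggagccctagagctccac
Jun: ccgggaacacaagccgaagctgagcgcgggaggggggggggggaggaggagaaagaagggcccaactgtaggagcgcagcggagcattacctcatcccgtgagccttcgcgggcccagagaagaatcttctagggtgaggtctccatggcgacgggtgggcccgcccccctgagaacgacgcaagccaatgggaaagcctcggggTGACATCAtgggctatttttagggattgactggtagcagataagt
Mt1: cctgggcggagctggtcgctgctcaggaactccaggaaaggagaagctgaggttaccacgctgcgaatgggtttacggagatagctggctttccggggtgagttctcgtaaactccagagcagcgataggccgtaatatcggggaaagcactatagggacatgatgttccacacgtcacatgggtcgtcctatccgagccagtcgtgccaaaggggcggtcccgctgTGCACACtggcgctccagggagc
Mt2: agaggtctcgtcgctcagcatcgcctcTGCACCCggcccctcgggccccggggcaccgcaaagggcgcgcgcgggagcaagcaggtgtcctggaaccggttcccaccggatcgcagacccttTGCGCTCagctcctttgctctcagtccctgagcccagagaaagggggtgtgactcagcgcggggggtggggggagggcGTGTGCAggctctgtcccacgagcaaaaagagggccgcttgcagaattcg
Cxcl1 held 2 matches, beginning 88 and 71 bases before the start, and 3.72% of 32851 RefSeq promoter windows of this length held the motif. Jun held 1 match, 45 bases before the start, against 4.43% of windows. Mt1 held 1 match at 23 bases and Mt2 held 3 at 223, 128 and 50 bases, against 21.4% of windows. A match describes letters and no binding was measured.

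The deposited values are linear ratios. In them 1 is the average of the adult sham arrays, and the sham mean of every gene is 1 by construction. All differences below are log2 differences of ratios, 30 min minus sham, with the standard error (SE) from limma, and n is 3 arrays per group throughout. Ratios carry no brightness, so the labelled tissue cannot be checked by the level of its markers. The 6 arrays spanned ratios of 0.0341 to 16.9 over 26180 probe sets. Their median ratios were 0.973, 0.969 and 1 in the 30 min arrays and 1, 1 and 0.992 in the sham arrays.

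Of the 6 arrays, 3 stood apart. Over all 26180 probe sets the log2 ratios of 30 min replicates 1 and 2 correlated at 0.81, whereas replicate 3 correlated with them at 0.04 and 0.07. These points share 1 denominator, the sham mean, and are not independent. Sham replicate 2 correlated positively with all 3 ischemia arrays, at 0.39, 0.54 and 0.22. Sham replicate 3 lay far above the other sham arrays in several macrophage and acute phase genes given below. A range over omissions, where one is given below, runs over the 6 values with 1 array left out, and the arrays that set its ends are named. Sample titles carry a code whose last part takes 1 value in all 30 min arrays and another in all sham arrays, so whatever it stands for cannot be told apart from the operation.

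No gene passed the test between 30 min and sham. Of 26180 probe sets, 0 had an adjusted p under 0.05 (percent called 0), and the lowest adjusted p was 0.354 (limma, Benjamini-Hochberg). At an unadjusted p under 0.05, 1035 probe sets were higher at 30 min (3.95%) and 1666 were lower (6.36%), together 10.3%. All 3 ischemia arrays lay above all 3 sham arrays in 1447 probe sets (5.53%) and below them in 1714 (6.55%), 12.1% in all. Over the 14351 genes with a symbol, 742 lay wholly above (5.17%) and 903 wholly below (6.29%), and the median difference was -0.03. Either way this was 11.5% of genes. At an unadjusted p under 0.05, 542 genes were higher (3.78%) and 966 lower (6.73%), 10.5% together, and 43% of genes differed by more than 0 and 57% by less. Data of 26180 probe sets were also simulated with each probe set's spread, as independent noise of equal size on every array. There 87 of 100 changes of log2 1 and 100 of 100 of log2 2, put on random probe sets, were found in this comparison. The real arrays were correlated and unequal, so these rates need not hold for them. Nor need they hold for single genes with a large SE, such as Cyp2b10 (0.73) and Cxcl1 (0.54). Cyp2b10 (-2.85) and Cxcl1 (-2.20) were not called with all arrays.

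The count of calls turned on single arrays. Without 30 min replicate 3, 148 probe sets passed (0.565%), 44 higher and 104 lower. Without sham replicate 2, 68 passed (0.26%), 21 higher and 47 lower. The lists shared 5 probe sets, all with the same sign in both. Leaving out any of the other 4 arrays gave 0.

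**Figure D1:**
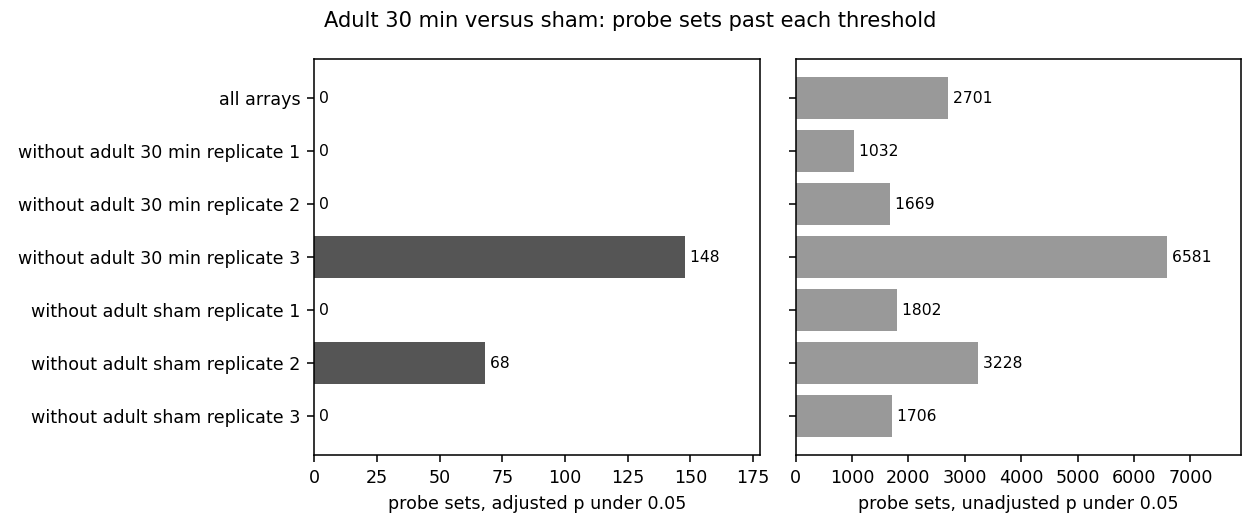
Probe sets with an adjusted p under 0.05 (left) and an unadjusted p under 0.05 (right) for adult 30 min versus adult sham. Bars show all arrays and each of the 6 arrays left out in turn. The adjusted count was 148 without 30 min replicate 3 and 68 without sham replicate 2, against 0 with all arrays.

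The most marked difference lay among targets of the nuclear receptor CAR. Cyp2b10, the cytochrome P450 that CAR induces most strongly in mouse liver, had ratios of 0.128, 0.217 and 0.0422 at 30 min and 1.75, 0.25 and 1 in sham liver, means of 0.129 ± 0.0875 and 1 ± 0.749 (SD, n = 3 each). All 3 ischemia values lay below all 3 sham values, with sham replicate 2 close above them. The log2 difference was -2.85 ± 0.73 (adjusted p = 0.354, limma). Over omissions it ran from -3.65 (sham replicate 2, adjusted p = 0.0367, limma) to -2.19 (30 min replicate 3, adjusted p = 0.0959). Without sham replicate 1 it was -2.25 (adjusted p = 0.696, limma). By pairs of arrays with a shared title code it was -3.77, -0.20 and -4.57.

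Por, the reductase that supplies electrons to P450 enzymes, had ratios of 0.59, 0.606 and 0.456 at 30 min, against 1.12, 0.634 and 1.25 in sham liver. The difference was -0.81 ± 0.23 (adjusted p = 0.368, limma), and 0.0367 was its adjusted p without sham replicate 2. Nr1i2, the xenobiotic receptor PXR, had ratios of 0.675, 0.674 and 0.679 at 30 min and 1.09, 0.805 and 1.11 in sham liver, and its 3 ischemia arrays lay within a narrow band. Its difference was -0.55 ± 0.15 (adjusted p = 0.354, limma).

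Gsta2, a glutathione transferase, had ratios of 0.685, 0.577 and 0.304 at 30 min and 1.33, 0.907 and 0.761 in sham liver, a difference of -0.98 ± 0.37. Over omissions it ran from -1.22 (30 min replicate 1) to -0.63 (30 min replicate 3). Cyp2c55 differed by -0.64 ± 0.26, Cyp3a25 by -0.45 ± 0.16 and Rxra, the partner receptor of CAR and PXR, by -0.24 ± 0.1, each with no overlap between groups. Nr1i3, the gene of CAR itself, differed by 0.08 ± 0.12 and its groups overlapped. Of the 20 measured CAR targets and partners, 0 passed the test, 9 lay wholly below sham (45%, against 6.29% of all genes) and 18 differed by less than 0. Their median was -0.24 (all genes -0.03), and between -0.31 (30 min replicate 2) and -0.21 (30 min replicate 3) over omissions.

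Other cytochrome P450 genes gave a median of -0.16 over 33 measured, with 0 passed and 6 wholly below sham (18.2%, against 6.29% of all genes). Its range over omissions was -0.20 (30 min replicate 3) to -0.10 (30 min replicate 2). Cyp39a1, a hydroxylase of 24-hydroxycholesterol in bile acid synthesis, had ratios of 0.398, 0.632 and 0.304 at 30 min and 1.31, 0.915 and 0.772 in sham liver. The groups did not overlap and the difference was -1.20 ± 0.27 (adjusted p = 0.354, limma). Cyp17a1 differed by -0.87 ± 0.35 with overlap, and by -0.57 without sham replicate 1. Cyp7a1, the rate-limiting enzyme of classical bile acid synthesis, varied within both groups, with ratios of 1.85, 0.706 and 1.07 at 30 min and 0.631, 0.79 and 1.58 in sham liver, a difference of 0.28 ± 0.49 that ran from -0.09 (30 min replicate 1) to 0.66 (sham replicate 3) over omissions. Among 22 bile acid genes, 0 passed, 3 lay wholly below (13.6%, against 6.29% of all genes) and the median was -0.19. Slc10a2, the bile acid carrier of cholangiocytes and ileum, had ratios of 0.25, 0.333 and 0.377 at 30 min and 0.397, 0.341 and 2.26 in sham liver, and its difference was -1.10 ± 0.42, or -0.22 without sham replicate 3.

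Cxcl1, a neutrophil-attracting chemokine whose promoter is printed above, had ratios of 0.0692, 0.365 and 0.245 at 30 min and 0.849, 0.406 and 1.75 in sham liver. Every ischemia value lay below every sham value. The difference was -2.20 ± 0.54 (adjusted p = 0.354, limma). Over omissions it ran from -2.73 (sham replicate 2, adjusted p = 0.0451, limma) to -1.50 (30 min replicate 1, adjusted p = 0.999). Without sham replicate 3 it was -1.68 (adjusted p = 0.718, limma). Pair by pair it was -3.62, -0.15 and -2.83. Among 20 measured chemokines Cxcl1 was the 1 that lay wholly below sham (5%, near the 6.29% of all genes). Ccl5, a T cell chemokine, lay wholly above with ratios of 1.51, 1.24 and 1.57 at 30 min against 1.1, 1.04 and 0.866 in sham liver, a difference of 0.52 ± 0.19. Ccl8 (0.34 ± 0.12) and Ccl22 (0.24 ± 0.11, or 0.15 without 30 min replicate 2) also lay wholly above. None of the 20 passed, the 3 above make 15% against 5.17% of all genes, and the median was 0.05.

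Inflammatory genes under NF-kB gave a median of -0.08 over 25 measured, with 0 passed and 2 wholly below sham (8%, against 6.29% of all genes). Without sham replicate 2 the median was -0.15. Nfkbiz, a nuclear IkB protein, had ratios of 0.383, 0.551 and 0.667 at 30 min and 0.733, 0.6 and 1.67 in sham liver, with overlap, and a difference of -0.79 ± 0.36, or -0.35 without sham replicate 3. Bcl3 differed by -0.54 ± 0.18, and by -0.36 without 30 min replicate 1. The cytokines Tnf, Il1b and Il6 differed by 0.04, -0.03 and 0.15. Nfkbia, the feedback inhibitor of NF-kB, differed by -0.50 ± 0.26, with a range over omissions from -0.76 (sham replicate 2 or 30 min replicate 3) to -0.26 (sham replicate 1).

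**Figure D2:**
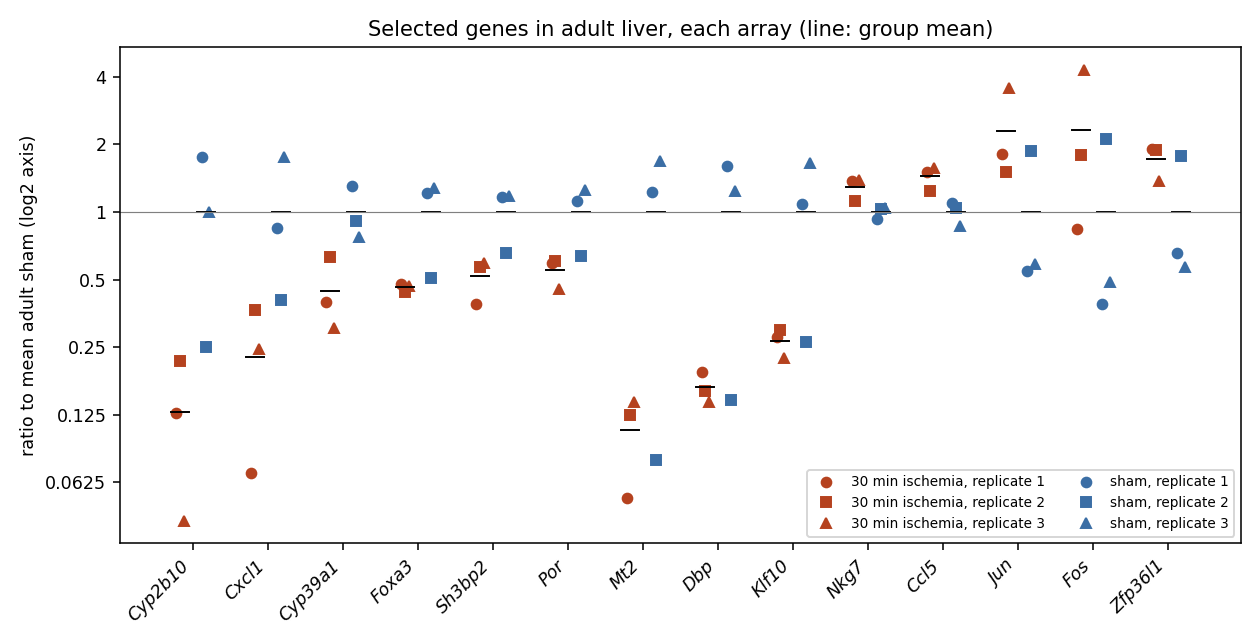
Ratio to the mean adult sham array (log2 axis) for selected genes in each of the 3 adult 30 min arrays and the 3 adult sham arrays, with a line at each group's mean. Cyp2b10 and Cxcl1 lie below sham in all 3 ischemia arrays, while sham replicate 2 sits near the ischemia arrays in both.

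Sham replicate 2 lay near or among the ischemia arrays in many stress and clock genes. Mt2, a zinc- and copper-binding metallothionein, had ratios of 0.0532, 0.125 and 0.142 at 30 min and 1.23, 0.0789 and 1.69 in sham liver. Mt1 followed with 0.0807, 0.183 and 0.237 at 30 min and 1.26, 0.137 and 1.6 in sham liver. In both genes the groups overlapped through sham replicate 2. The differences were -2.48 ± 1.09 for Mt2 and -2.10 ± 0.95 for Mt1, with adjusted p of 0.459 and 0.468 (limma). Without sham replicate 2 they were -3.88 (adjusted p = 0.138) and -3.23 (adjusted p = 0.171, limma), and without sham replicate 3 -1.67 and -1.45. Of 16 metallothionein and zinc transporter genes 0 passed, 0 lay wholly apart and the median was -0.22. It ran from -0.36 (30 min replicate 3) to -0.09 (30 min replicate 1) over omissions, with -0.13 without sham replicate 3.

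Socs3, the feedback inhibitor of cytokine signalling, had ratios of 0.155, 0.332 and 0.246 at 30 min and 0.754, 0.328 and 1.92 in sham liver, a difference of -1.74 ± 0.71, or -2.37 without sham replicate 2 and -1.09 without sham replicate 3. Fkbp5, a glucocorticoid-induced co-chaperone, had ratios of 0.465, 0.437 and 0.517 at 30 min and 1.23, 0.378 and 1.4 in sham liver. Its difference was -0.87 ± 0.37, -1.47 without sham replicate 2 (adjusted p = 0.0462, limma) and -0.53 without sham replicate 3 (adjusted p = 0.748). Glucocorticoid-responsive genes gave a median of -0.39 over 17, with 0 passed and 14 below 0. The median was -0.65 without sham replicate 2, and -0.24, -0.23, -0.25 and -0.27 without 30 min replicate 1, 30 min replicate 2, sham replicate 1 and sham replicate 3.

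Dbp, a clock output factor with a steep daily rhythm in liver, had ratios of 0.194, 0.16 and 0.143 at 30 min and 1.61, 0.146 and 1.24 in sham liver, a difference of -2.01 ± 0.96, or -3.10 without sham replicate 2 and -1.37 without sham replicate 1. Sham replicate 2 lay within the ischemia range. Nr1d2, the clock repressor REV-ERB beta, had ratios of 0.384, 0.404 and 0.456 at 30 min and 1.23, 0.498 and 1.27 in sham liver, with sham replicate 2 next above, and a difference of -1.15 ± 0.46. Tef differed by -0.80 ± 0.32, Nr1d1 by -0.65 ± 0.51 and Arntl, the clock activator, by 0.50 ± 0.37, all with overlap. Without sham replicate 1 Nr1d1 differed by -0.38, and without sham replicate 2 by -0.99. Arntl ran from 0.32 (30 min replicate 3) to 0.83 (sham replicate 2) over omissions. The 21 clock genes gave 0 passed, 3 wholly below (14.3%, against 6.29% of all genes), 1 wholly above (4.76%, against 5.17%) and a median of -0.20. That median rested on sham replicate 1: it was -0.04 without it, near the -0.03 of all genes, and -0.11 without 30 min replicate 1. The labels used here give no hour at which tissue was taken, and its part in these values was not tested.

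Among immediate early genes, Jun, whose promoter is printed above, had ratios of 1.81, 1.51 and 3.57 at 30 min and 0.548, 1.86 and 0.589 in sham liver. Sham replicate 2 again fell within the ischemia range, and the difference was 1.34 ± 0.49 (adjusted p = 0.448, limma), or 1.91 without sham replicate 2 and 0.97 without 30 min replicate 3. Fos had ratios of 0.84, 1.79 and 4.29 at 30 min and 0.388, 2.12 and 0.489 in sham liver, a difference of 1.33 ± 0.72, or 2.09 without sham replicate 2, 0.87 without sham replicate 1 and 0.73 without 30 min replicate 3. Egr1 had ratios of 1.51, 1.47 and 1.48 at 30 min and 0.742, 1.81 and 0.449 in sham liver, a difference of 0.82 ± 0.43, or 1.37 without sham replicate 2 and 0.36 without sham replicate 3. In each of the 3 genes every ischemia array lay above sham replicates 1 and 3, and at least 1 lay below sham replicate 2.

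Zfp36l1, a protein that hastens decay of AU-rich transcripts, had ratios of 1.91, 1.89 and 1.38 at 30 min and 0.66, 1.77 and 0.566 in sham liver. Its difference was 0.97 ± 0.29 (adjusted p = 0.397, limma), and without sham replicate 2 it was 1.48 (adjusted p = 0.00652). Nr4a1, an orphan nuclear receptor, had ratios of 1.85, 1.54 and 1.22 at 30 min and 0.972, 1.39 and 0.641 in sham liver. Its difference was 0.67 ± 0.21, 0.94 without sham replicate 2 (adjusted p = 0.0459, limma) and 0.39 without sham replicate 3. Atf3 (0.30 ± 0.32), Dusp1 (0.64 ± 0.46), Myc (0.24 ± 0.32) and Junb (-0.55 ± 0.39) overlapped between groups, and single arrays set their size. Dusp1 was 0.23 without 30 min replicate 3, Junb -0.17 without sham replicate 3, Atf3 0.14 without sham replicate 1 and Myc 0.06 without sham replicate 3. The 13 AP-1 and ATF factors gave 0 passed, a median of 0.08 and 2 members wholly apart in either direction (15.4% each, against 5.17% of all genes above and 6.29% below). Over omissions that median ran from 0.02 (30 min replicate 1) to 0.15 (30 min replicate 3). One of them, Fosl2, had ratios of 0.703, 0.83 and 0.767 at 30 min and 0.963, 0.944 and 1.09 in sham liver, a difference of -0.38 ± 0.09. The 18 Egr, Nr4a, Klf and related factors gave a median of 0.07, or 0.01 without sham replicate 3. Among them Klf10 had ratios of 0.277, 0.297 and 0.224 at 30 min and 1.08, 0.265 and 1.65 in sham liver, a difference of -1.56 ± 0.60, or -2.34 without sham replicate 2 and -1.02 without sham replicate 3.

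Foxa3, Hnf4a and Trim24 lay below sham without overlap. Foxa3, a forkhead factor of hepatocytes, had ratios of 0.479, 0.441 and 0.467 at 30 min and 1.21, 0.508 and 1.28 in sham liver. The difference was -1 ± 0.28 (adjusted p = 0.354, limma), and -1.43 without sham replicate 2 (adjusted p = 0.013). Hnf4a, the nuclear receptor that maintains hepatocyte identity, had ratios of 0.698, 0.666 and 0.718 at 30 min and 1.18, 0.748 and 1.08 in sham liver, a difference of -0.50 ± 0.15. Without sham replicate 2 its adjusted p was 0.0483 (limma). Trim24, a nuclear receptor cofactor, had ratios of 0.461, 0.545 and 0.604 at 30 min and 0.949, 0.696 and 1.36 in sham liver, and its difference was -0.85 ± 0.21 (adjusted p = 0.0352 without sham replicate 2, limma).

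Sh3bp2, an adaptor protein of immune cell signalling, had ratios of 0.391, 0.57 and 0.591 at 30 min and 1.16, 0.656 and 1.18 in sham liver. Its difference of -0.92 ± 0.20 had an adjusted p of 0.354 (limma) with all arrays, 0.0482 without 30 min replicate 3 and 0.00681 without sham replicate 2. Gadd45a, a growth arrest gene, had ratios of 0.279, 0.651 and 0.531 at 30 min and 0.836, 0.843 and 1.32 in sham liver, a difference of -1.09 ± 0.33. Klf13 (-0.88 ± 0.31), N4bp2l1 (-0.91 ± 0.33), Obp2a (-1.06 ± 0.31) and Sds, the serine dehydratase of amino acid breakdown (-0.82 ± 0.29), also lay wholly below sham. Obp2a was -0.62 without sham replicate 1. Apart from Hnf4a, all were picked by size among genes with non-overlapping groups, so their lack of overlap is no result of its own. The same holds for genes in other paragraphs that met this rule, such as Cyp2b10, Cxcl1, Cd163 and Ccl5. It also holds for genes named after their values were seen.

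Genes wholly above sham by the same rule differed less in size. BC051142 differed by 0.60 ± 0.16, with mean ratios of 1.53 ± 0.32 at 30 min and 1 ± 0.144 in sham liver (SD, n = 3 each). Scg3, a secretory granule protein known from endocrine cells, had ratios of 1.6, 1.34 and 1.39 at 30 min and 0.963, 1.22 and 0.813 in sham liver, a difference of 0.55 ± 0.13. Ccn1, a matrix-associated protein induced by growth factors, had ratios of 1.37, 1.26 and 1.64 at 30 min and 0.931, 1.11 and 0.956 in sham liver, a difference of 0.50 ± 0.14. Il16, a lymphocyte attractant, had ratios of 1.36, 1.45 and 1.31 at 30 min and 0.985, 1.11 and 0.909 in sham liver, a difference of 0.46 ± 0.11. Gm5142 (0.59), Hyal5 (0.54), Cfap57 (0.49), Defb10 (0.49) and Ly6d (0.49) made up the next. Without sham replicate 2, Scg3 (adjusted p = 0.0267) and Defb10 (0.0284) passed in limma. Without 30 min replicate 3, BC051142, Gm5142 and Cfap57 passed, each with an adjusted p of 0.0482 (limma). Gm5142 was 0.38 without sham replicate 3. Brightness is not kept, so dim probe sets could not be set aside.

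Slc25a25, which moves ATP-Mg across the inner mitochondrial membrane, had ratios of 2.41, 1.23 and 2.84 at 30 min and 0.74, 1.32 and 0.941 in sham liver, a difference of 1.07 ± 0.35. G6pc, the last enzyme of gluconeogenesis, had ratios of 1.73, 1.35 and 2 at 30 min and 0.583, 1.69 and 0.723 in sham liver, a difference of 0.90 ± 0.37. Sham replicate 2 lay inside the ischemia range in both genes, and without it the differences were 1.29 and 1.36. G6pc was 0.59 without sham replicate 1. Pck1 differed by -0.49 ± 0.28. Gys2, the liver glycogen synthase, had ratios of 0.711, 0.688 and 0.758 at 30 min and 1.13, 0.911 and 0.955 in sham liver, a difference of -0.47 ± 0.15 with no overlap. Of 20 genes of gluconeogenesis and the fasting switch 0 passed, 5 lay wholly below (25%, against 6.29% of all genes), 1 wholly above (5%, against 5.17%) and the median was -0.19. Without sham replicate 1 the median was -0.08. Targets of PPARalpha, the fatty acid receptor, gave a median of -0.15 over 28, or -0.26 without 30 min replicate 3 and -0.10 without sham replicate 1. The fatty acid synthesis list gave -0.16 over 18, or -0.10 without 30 min replicate 2.

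Hypoxia-inducible genes gave a median near that of all genes. Of 28 measured targets of HIF, the oxygen-sensing factor, 0 passed and 3 lay wholly below sham (10.7%, against 6.29% of all genes). At an unadjusted p under 0.05, 0 were higher and 4 were lower, where the shares over all genes were 3.78% and 6.73%. The median was -0.07, and between -0.15 (30 min replicate 3) and -0.02 (30 min replicate 2) over omissions. Bnip3l, a mitophagy receptor, had ratios of 0.615, 0.721 and 0.814 at 30 min and 1.13, 0.913 and 0.955 in sham liver, a difference of -0.48 ± 0.14 with no overlap. Kdm3a differed by -0.54 ± 0.18. Bhlhe40, a transcriptional repressor, differed by -0.80 ± 0.33, by -1.29 without sham replicate 2 and by -0.47 without sham replicate 3. The glycolytic enzyme Aldoa differed by -0.33 ± 0.13, and by -0.19 without 30 min replicate 1. Vegfa, the vascular growth factor, had ratios of 0.93, 0.888 and 1.12 at 30 min and 1.04, 0.959 and 1 in sham liver, a difference of -0.04 ± 0.09. Hmox1, the heme oxygenase of the oxidant response, differed by -0.48 ± 0.19. It was -0.78 without sham replicate 2 (adjusted p = 0.0359, limma) and -0.30 without sham replicate 3. The 29 Nrf2 and reactive oxygen genes gave 0 passed, 4 wholly below (13.8%, against 6.29% of all genes) and a median of -0.13, which ran from -0.20 (30 min replicate 3) to -0.08 (30 min replicate 1) over omissions.

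Kupffer cell markers lay below sham on average. Of 14 measured, 0 passed, 14 differed by less than 0, 3 lay wholly below (21.4%, against 6.29% of all genes) and the median was -0.51. The median member's log2 ratio was -0.86, -0.62 and -0.27 in the 30 min arrays and -0.22, -0.31 and 0.33 in the sham arrays, so sham replicate 3 was the highest of the 6. Without sham replicate 3 the median was -0.21. In whole tissue, fewer cells of a type and less RNA per cell cannot be told apart.

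Cd163, the haemoglobin scavenger receptor of macrophages, had ratios of 0.373, 0.578 and 0.707 at 30 min and 1.07, 0.78 and 1.15 in sham liver. The groups did not overlap and the difference was -0.88 ± 0.25 (adjusted p = 0.354, limma). Cd5l differed by -0.70 ± 0.29 and also did not overlap, and it was -0.42 without sham replicate 3. Marco, a bacterial scavenger receptor, had ratios of 0.208, 0.199 and 0.513 at 30 min and 0.247, 0.231 and 2.52 in sham liver, a difference of -0.92 ± 0.62 that was 0.21 without sham replicate 3. Clec4f (-0.34 ± 0.18), Vsig4 (-0.53 ± 0.32) and Adgre1 (-0.34 ± 0.18) were nearer to 0, the last without overlap. Without sham replicate 3 Vsig4 was -0.27 and Adgre1 -0.19, and without 30 min replicate 1 Clec4f was -0.16.

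Acute phase proteins, many of which hepatocytes make in response to cytokines, differed by less than 0 in all 23 measured, with a median of -0.24. Of them 0 passed and 1 lay wholly below sham (4.35%, under the 6.29% of all genes). Saa2 had ratios of 0.0681, 0.328 and 0.31 at 30 min and 0.173, 0.369 and 2.46 in sham liver, a difference of -1.50 ± 0.73, or -0.41 without sham replicate 3 and -2.32 without sham replicate 1. Lcn2 had ratios of 0.0865, 0.322 and 1.09 at 30 min and 0.176, 0.336 and 2.49 in sham liver, a difference of -0.76 that ran from -1.66 (30 min replicate 3) to 0.36 (sham replicate 3) over omissions. Saa4 was the member without overlap, at 0.512, 0.709 and 0.703 at 30 min and 0.823, 0.874 and 1.3 in sham liver, a difference of -0.63 ± 0.22. The list's median was -0.07 without 30 min replicate 1, -0.12 without sham replicate 3 and -0.49 without 30 min replicate 3.

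**Figure D3:**
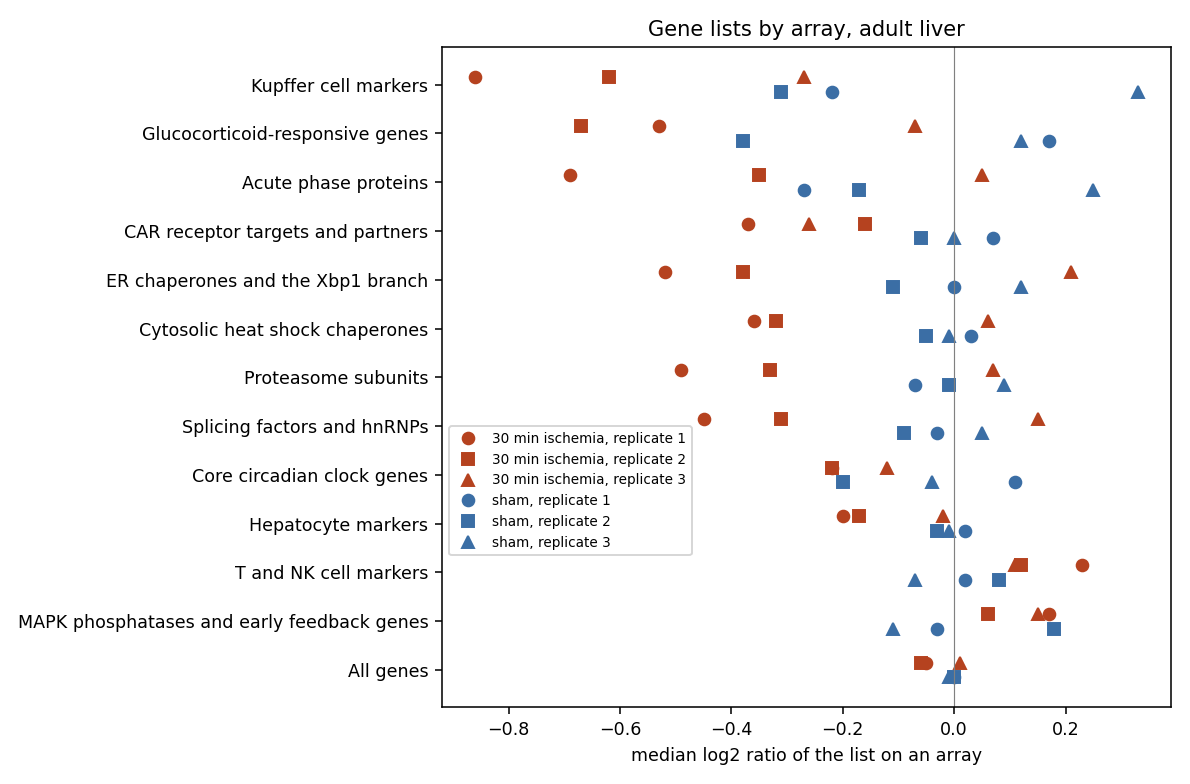
Median log2 ratio of the measured members of each gene list in the 3 adult 30 min arrays and the 3 adult sham arrays. The Kupffer cell median runs from -0.86 to -0.27 at 30 min and from -0.31 to 0.33 in sham, and in the proteasome and ER lists 30 min replicate 3 lies above 0 while replicates 1 and 2 lie below.

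In protein folding and turnover genes, 30 min replicate 3 was unlike the other ischemia arrays. The 24 genes of endoplasmic reticulum folding and the Xbp1 branch had array medians of -0.52, -0.38 and 0.21 at 30 min and 0, -0.11 and 0.12 in sham liver. Their median difference was -0.22 with all arrays, -0.03 without 30 min replicate 1, -0.14 without replicate 2 and -0.44 without replicate 3. Hspa5, the main chaperone of the endoplasmic reticulum, had ratios of 0.523, 0.606 and 1.16 at 30 min and 1.07, 0.818 and 1.11 in sham liver, a difference of -0.47 ± 0.30, or -0.82 without 30 min replicate 3 and -0.24 without replicate 1. Herpud1, a factor of endoplasmic reticulum degradation, had ratios of 0.592, 0.45 and 0.651 at 30 min and 1.34, 0.551 and 1.11 in sham liver, a difference of -0.75 ± 0.31, or -1.13 without sham replicate 2 and -0.49 without sham replicate 1.

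Proteasome subunits had array medians of -0.49, -0.33 and 0.07 at 30 min and -0.07, -0.01 and 0.09 in sham liver. Of 40 measured 0 passed, 39 differed by less than 0, 3 lay wholly below (7.5%, close to the 6.29% of all genes) and the median was -0.24, -0.13 without 30 min replicate 1 and -0.37 without replicate 3. Psmc6, an ATPase of the regulatory particle, had ratios of 0.565, 0.655 and 1.03 at 30 min and 0.989, 0.931 and 1.08 in sham liver, a difference of -0.46 ± 0.19, or -0.72 without 30 min replicate 3 and -0.28 without replicate 1. Cytosolic heat shock chaperones had array medians of -0.36, -0.32 and 0.06 at 30 min and 0.03, -0.05 and -0.01 in sham liver, with 26 of 29 below 0. Their median difference was -0.22, or -0.09 without 30 min replicate 1. Hspa1a, the inducible Hsp70, had ratios of 0.888, 0.941 and 1.09 at 30 min and 0.915, 1.06 and 1.02 in sham liver, a difference of -0.04 ± 0.25. Splicing factors and hnRNPs had array medians of -0.45, -0.31 and 0.15 at 30 min and -0.03, -0.09 and 0.05 in sham liver. Their median difference was -0.22, -0.07 without 30 min replicate 1 and -0.41 without replicate 3. Oxidative phosphorylation genes were below 0 in 54 of 55, with a median of -0.11 (-0.05 without 30 min replicate 1, -0.20 without replicate 3) and none at an unadjusted p under 0.05 in either direction. Whether the state of the RNA moved with these lists was not tested, because the ratios hold no measure of it.

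T and NK cell markers lay slightly above sham on average. Of 16 measured 0 passed, 15 differed by more than 0, 5 lay wholly above (31.2%, against 5.17% of all genes) and the median was 0.16. Nkg7, a granule protein of cytotoxic lymphocytes, had ratios of 1.37, 1.12 and 1.39 at 30 min and 0.93, 1.03 and 1.04 in sham liver, a difference of 0.37 ± 0.11. Gzmb, a killing protease, had ratios of 1.22, 1.25 and 1.51 at 30 min and 0.913, 1.06 and 1.03 in sham liver, a difference of 0.41 ± 0.13. Cd3e, a chain of the T cell receptor complex, differed by 0.19 ± 0.08 without overlap. Ccl5, given above, is also counted in this list.

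B cell and plasma cell markers gave a median of 0.26 over 9, none wholly apart, and 0.14 without sham replicate 3. Jchain, the joining chain of secreted antibody, had ratios of 3.52, 0.695 and 3.38 at 30 min and 1.9, 0.515 and 0.58 in sham liver, a difference of 1.29 ± 0.55 that was 2.06 without 30 min replicate 2. It varied within both groups. Neutrophil markers gave a median of -0.02 over 12, endothelial markers -0.10 over 15, stellate cell markers 0.00 over 14 and cholangiocyte markers 0.04 over 9. Pancreas and gut markers gave 0.09 over 9. All 17 hepatocyte markers differed by less than 0, with a median of -0.14 and 6 wholly below (35.3%, against 6.29% of all genes). The median was -0.08 without 30 min replicate 1. Alb differed by -0.06 ± 0.1.

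The values at 60 and 90 min use the same adult sham arrays and are given side by side with no comparison between them. Cyp2b10 differed from sham by -2.85, -3.44 and -3.08 at 30, 60 and 90 min, and Cxcl1 by -2.20, -2.63 and -2.05. Dbp differed by -2.01, 1.19 and -0.56, its arrays at 60 and 90 min ranging from 0.189 to 2.84. Kupffer cell markers gave medians of -0.51, -0.46 and -1.07.

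Young mice, 4 to 5 weeks old, have sham arrays of their own, so the adult and the young difference at 30 min share no array. Of 26180 probe sets 0 passed for the difference between the ages (percent called 0, limma), and 539 had an unadjusted p under 0.05 (2.06%). Cyp2b10 had a young difference of -4.01, and its adult minus young value was 1.16 ± 1.03. Cxcl1 had a young difference of -2.72. Cyp39a1 differed by -1.20 in adult and -0.32 in young liver, a gap of -0.88 ± 0.38 (adjusted p = 1, limma). Gpcpd1, a glycerophosphocholine phosphodiesterase, differed by -0.66 ± 0.27 in adult and -1.99 ± 0.27 in young liver, a gap of 1.32 ± 0.39 (adjusted p = 1, limma). Nkg7 differed by 0.37 in adult and -0.20 in young liver, a gap of 0.57 ± 0.15 (adjusted p = 1, limma). For no gene was a difference between the ages shown.

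**Figure D4:**
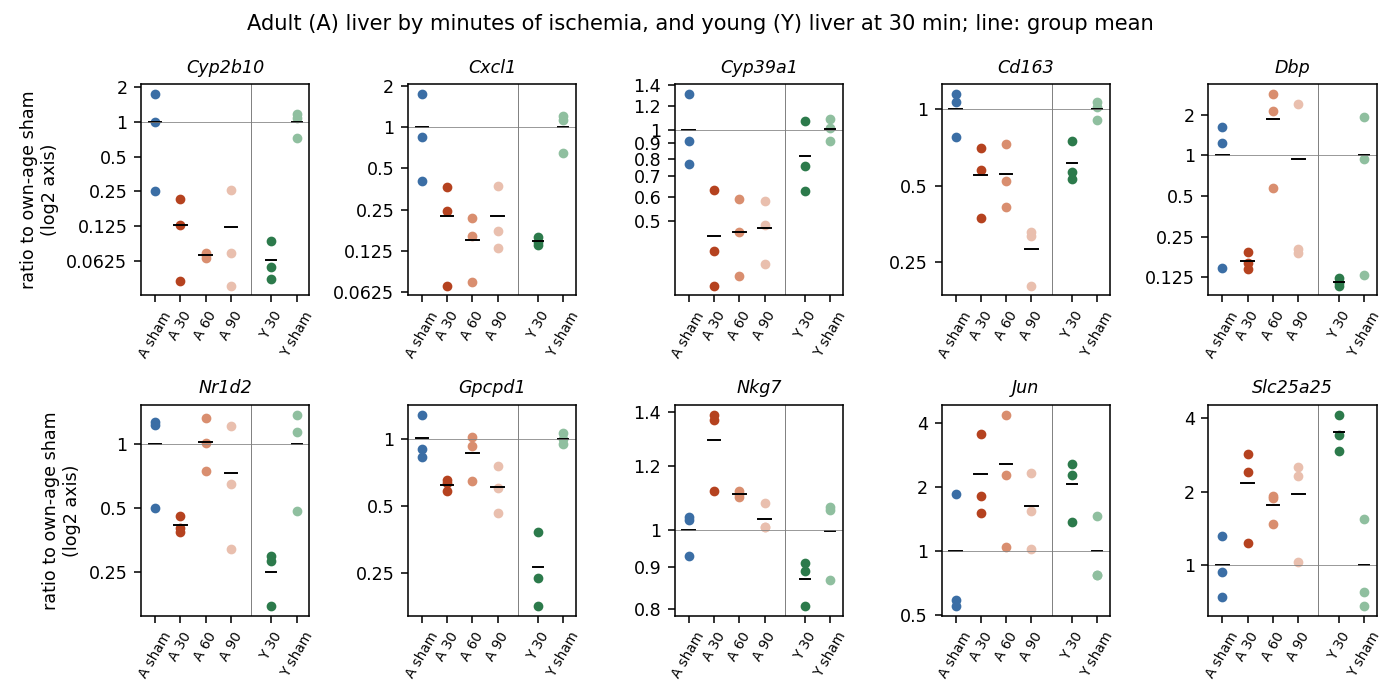
Ratio to the mean sham array of the same age (log2 axis) for 10 genes in adult sham liver and adult liver after 30, 60 and 90 min, and in young liver at 30 min and young sham liver, with a line at each group mean. Adult and young sham means are each 1 by construction, and Dbp spans 0.146 to 1.61 within adult sham liver.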

How the data were processed

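Liver RNA was measured on Affymetrix 3' arrays, and the expression values were made with RMA, per the submitters' processing notes, with no version given. The deposited ratios are linear, and in each of 26180 probe sets the sham ratios of either age average 1 within 2e-07, so the authors scaled each age to its own sham arrays. The probe set definitions are not given in the sources used here. Precision is limited by the 3 arrays per group. The p-values set each difference against a spread estimated from all 24 arrays in their 8 groups, not from the 6 arrays alone.

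RefSeq accessions were matched to the supplied table (GRCm38.p6): 15228 probe sets had 1 symbol and 10952 had none, leaving 14351 genes. For 661 genes with several probe sets, 1 was taken by accession type and lowest number. No filter on dim probe sets was possible.

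The log2 ratios of 24 arrays were fitted with 8 group means in limma 3.58.1 (R 4.3.3), with 16 residual degrees of freedom, the default prior (4.65 degrees of freedom), a two-sided test and Benjamini-Hochberg adjustment over 26180 probe sets at 0.05. The fit was tested on simulated data, where 13 unchanged probe sets were called among the 26180 when changes were set and 0 with none set. Groups not overlapping means that all 3 values of one lie beyond all 3 of the other.

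Members and gene lists were chosen with earlier results of these data known. Genes are named by rule: up to 15 per direction that passed or, as none did, those with an unadjusted p under 0.05 and no overlap, by size; the 4 largest differences in each list; and a short set fixed by name. Adgre1, Alb, Aldoa, Arntl, Ccl22, Cd3e, Clec4f, Cyp3a25, Cyp7a1, Fosl2, Gys2, Il1b, Il6, Nr1d1, Nr1i2, Nr1i3, Rxra, Saa4, Tnf and Vsig4, and the promoters shown, were chosen after their values were seen. The first part of the title code pairs the arrays: deviations from the group means correlated at 0.20, 0.25 and 0.35 in the 3 pairs, all above 0.1. Unmatched pairs of a sham and a 30 min array ran from -0.29 to 0.13, and 30 min replicates 1 and 2 gave 0.17. A value above 0.1 was thus not confined to pairs with a shared code. Deviations cancel within each group by construction, so the values of matched and unmatched pairs are not independent. Alternatives were 1 probe set per gene, curated accessions, quantile normalization, median centring, the pair as a block, array weights, a robust prior, unlogged ratios, log2(ratio + 1), fewer arrays and each array left out.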

Additional observations from a re-analysis of the deposited data

How the results depend on the processing

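Calls for adult 30 min versus sham stayed at 0 under every alternative run other than array weights and the omission of 2 single arrays. Array weights gave 3375 calls, with a weight of 4.08 for 30 min replicate 2 and 0.27 for replicate 3. Leaving out each array in turn gave 0 to 148 calls, 148 without 30 min replicate 3 and 68 without sham replicate 2. At an unadjusted p under 0.05, against 2701 in the main setting, quantile normalization gave 1133, array weights 8207, the 6 arrays alone 1685, and single omissions 1032 to 6581. For the adult minus young response, against 539, quantile normalization gave 335, array weights 3156 and single omissions 472 to 1514, with 0 calls in each. With the pair as a replicate block there were 0 calls and 2757 probe sets at an unadjusted p under 0.05, and the block changed no call among the 179 named genes. Block fits on the 6 arrays and on the 12 adult arrays, added after seeing the data, gave 0 calls with 2888 and 2311.

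Some genes turned sign under another scaling: Gdf15 was -0.11 with array weights, and with quantile normalization Hspa1a was 0.02 and Vegfa 0.01. Single omissions spanned 0 for Asns (-0.97 to 0.1), Ass1 (-0.38 to 0.02), Cldn4 (0 to 0.37), Cpa1 (-0.01 to 0.28), Cxcl13 (-1.51 to 0.09), Hspa1a (-0.13 to 0.02), Lcn2 (-1.66 to 0.36), Lum (-0.04 to 0.34), Marco (-1.51 to 0.21), Mvd (-0.06 to 0.51), Ppbp (-0.56 to 0.01), Rpl14 (-0.41 to 0), Rpl17 (-0.48 to 0.08), Sqle (-0.51 to 0.07) and Vegfa (-0.14 to 0.03). The cause was not tested.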

Other observations

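In the remaining gene lists 0 members passed, and the median of all genes was -0.03 (limma, with 10.5% of all genes at an unadjusted p under 0.05). Cell cycle and DNA replication genes gave a median of 0.04 over 32. Of these, 5 lay wholly above sham (15.6%, against 5.17% of all genes) and 1 wholly below (3.12%, against 6.29%). At an unadjusted p under 0.05, 0 were higher and 0 lower (limma), against 3.78% and 6.73% of all genes. The cell cycle median was -0.01 without 30 min replicate 1 and 0.05 without sham replicate 3. Bcl2 family and cell death genes gave -0.09 over 27, with 4 wholly below (14.8%, against 6.29%), among them Mcl1, a survival protein of hepatocytes, at -0.44. MAPK phosphatases and early feedback genes gave 0.16 over 15, none wholly apart. Medians were -0.05 over 21 interferon-stimulated genes, 0 over 23 integrated stress response genes, -0.10 over 23 cholesterol synthesis genes, -0.08 over 22 growth arrest genes, -0.05 over 23 ribosomal protein genes, -0.07 over 17 growth hormone and SOCS genes and 0.07 over 9 erythroid and platelet markers. With 1 array left out the cholesterol median ran from -0.26 (sham replicate 1) to 0.06 (sham replicate 3). Without 30 min replicate 3 the interferon and ribosomal medians were both -0.18 and the growth arrest median -0.21, and without 30 min replicate 1 the interferon and ribosomal medians were both 0.05.

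Cxcl13, a B cell attractant, had ratios of 0.247, 0.264 and 0.382 at 30 min and 0.283, 0.266 and 2.45 in sham liver, so its difference of -0.96 was 0.09 without sham replicate 3. A pair of probe sets with predicted accessions and no symbol read 16.9 and 16.7 in 30 min replicate 1, 0.774 and 0.775 in replicate 2 and 2.5 and 2.48 in replicate 3, with sham arrays between 0.872 and 1.09.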
